A study of Homo sapiens with 32 samples.

Results

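The 10 rows examined here are 5 pairs of genes that lie on opposite strands and share exons, taken from a table of 57773 gene rows in LNCaP cells, an androgen-dependent human prostate cancer cell line. Each pair joins a gene commonly counted as a housekeeping gene with a gene on the other strand: GAPDH with RP5-940J5.9, FTH1 with BEST1, UBB with RP11-138I1.4, PPIB with SNX22, and MAZ with AC009133.14. The pairs were chosen by name, and selected on their measured levels: the opposite row was high and the housekeeping row was low. Those levels are therefore a description and carry no test, while the responses to treatment were tested over libraries. The pairs had been labelled as abundant housekeeping genes read on both strands. In the table the abundant rows were the opposite ones, and the rows with the housekeeping names held 3 to 116 counts in a library. All 10 rows passed the expression filter, which kept 3985 rows.

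The 32 libraries came from 8 groups of 4 biological replicates: the parental LNCaP line and 3 LNCaP lines that stably carry a MACC construct (Modifier of ARE Containing Chromatin), each given 2.5 µM tamoxifen or ethanol vehicle for 48 h. An ARE is the DNA element that the androgen receptor binds. Every MACC construct joins the DNA-binding domain of the androgen receptor to ERT2, an estrogen receptor domain that brings the protein into the nucleus when tamoxifen is present. The neutral construct carries a 3X FLAG tag and no effector, the repressive construct adds the KRAB repressor and the activating construct adds the VP64 activator. The MACC lines were made by lentivirus and kept in blasticidin, a drug that the labels name for these lines only, so selection and construct cannot be told apart in a comparison with the parental line.

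GAPDH is a glycolytic enzyme, FTH1 the heavy chain of ferritin, which stores iron, UBB one of the genes that encode ubiquitin as head-to-tail repeats, PPIB a cyclophilin that helps proteins fold in the endoplasmic reticulum, and MAZ a zinc finger factor that binds GC-rich DNA. GAPDH and PPIB are common reference genes for normalization. Of the opposite genes, BEST1 encodes a chloride channel known from the retinal pigment epithelium, SNX22 is a sorting nexin, and RP5-940J5.9, RP11-138I1.4 and AC009133.14 are annotated as long noncoding RNAs. A stranded library keeps the strand of each RNA, and the counting step must be told which read of a pair carries it. The library kit was stranded, and the strand setting used in counting is not given in the sources used here. Which strand's RNA a row of these pairs holds is therefore unknown here and was not tested. A row's name alone does not show which gene its RNA came from.

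The loci were placed on GRCh37 with GENCODE 44 annotation lifted to that build. GAPDH lies at chr12:6643678-6647540 on the plus strand, and RP5-940J5.9 at chr12:6646960-6647536 on the minus strand. All 422 exonic bases of RP5-940J5.9 lay within GAPDH exons, 219 of them over GAPDH coding sequence. UBB lies at chr17:16284112-16286059 on the plus strand, and RP11-138I1.4 at chr17:16285466-16285983 on the minus strand. All 461 exonic bases of RP11-138I1.4 lay within UBB exons, 386 of them over coding sequence. So these 2 noncoding genes had no exonic base of their own. FTH1 lies at chr11:61727190-61735106 on the minus strand and BEST1 at chr11:61717535-61732987 on the plus strand, with 1267 shared exonic bases, 63.2% of the FTH1 exons and 14.6% of the BEST1 exons. PPIB lies at chr15:64447939-64455333 on the minus strand and SNX22 at chr15:64443914-64449680 on the plus strand, with 1163 shared exonic bases. MAZ lies at chr16:29817427-29822485 on the plus strand and AC009133.14, named MVP-DT in the annotation, at chr16:29819957-29832573 on the minus strand, with 1536 shared exonic bases. Its other exons overlap 1 more gene, PRRT2, whose row had a mean of 0.125 counts.

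**Figure D1:**
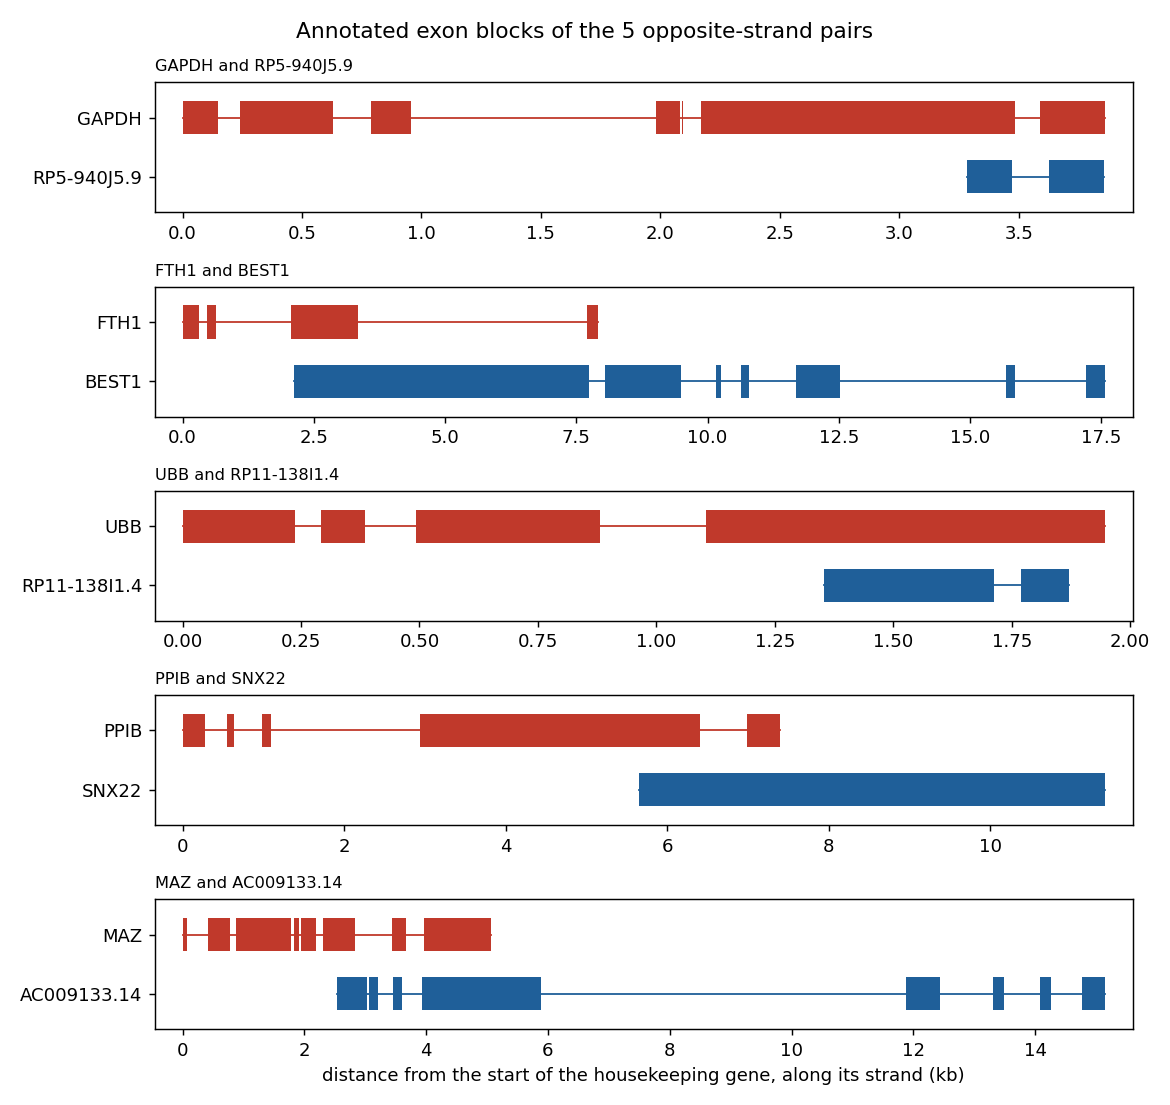
Exon blocks of the housekeeping gene (red, upper track) and the opposite gene (blue, lower track) of each pair, all annotated transcripts joined, with the distance from the start of the housekeeping gene in kb on the x axis. The blocks of RP5-940J5.9 and RP11-138I1.4 lie wholly under those of GAPDH and UBB, while BEST1, SNX22 and AC009133.14 reach beyond their partners.

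The same stretch of DNA, read on its 2 strands, belongs to both genes of a pair. It is shown here for the 3 pairs in which the opposite gene is noncoding, as 60 bases from the middle of the longest stretch that is coding in the housekeeping gene, an exon of the opposite gene and outside every annotated UTR. Each line gives the strand of the named gene, 5′ to 3′, on GRCh37, and no base is in capitals since no motif is marked. The stretches are chr12:6647025-6647084 for GAPDH, chr17:16285615-16285674 for UBB and chr16:29820924-29820983 for MAZ.
GAPDH: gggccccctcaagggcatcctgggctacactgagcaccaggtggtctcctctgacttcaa
RP5-940J5.9: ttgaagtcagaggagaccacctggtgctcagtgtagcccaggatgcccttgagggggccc
UBB: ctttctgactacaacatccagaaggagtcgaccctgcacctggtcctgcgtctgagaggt
RP11-138I1.4: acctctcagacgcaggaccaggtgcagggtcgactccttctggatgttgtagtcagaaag
MAZ: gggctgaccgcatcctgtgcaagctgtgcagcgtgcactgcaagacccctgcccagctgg
AC009133.14: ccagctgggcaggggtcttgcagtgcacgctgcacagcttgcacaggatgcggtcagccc
In each pair the lower line is the reverse complement of the upper one, so a read from this stretch can be given to either gene by its strand alone. Similar sequence elsewhere bears on the rows too. UBB repeats its ubiquitin unit, which pseudogenes also carry, and the counting split some reads, since the estimate for UBB lay more than 0.05 counts from a whole number in 10 of the 32 libraries. The same held in 25 libraries for FTH1, in 30 for BEST1, in 4 for GAPDH and in 1 for AC009133.14. For MAZ, RP5-940J5.9, RP11-138I1.4, SNX22 and PPIB every estimate was whole within this tolerance. The values of UBB, FTH1 and BEST1 are therefore uncertain to the extent of that split. Rows named as pseudogenes of the housekeeping genes held few counts: the 25 FTH1 pseudogene rows summed to 1 to 23 counts in a library, the 58 GAPDH pseudogene rows to 1 to 14 and the 5 UBB pseudogene rows to 0 to 3.

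The libraries held 454982 to 1164808 counts, which is shallow for the low rows. The 10 rows took 7.43% to 10.8% of a library in 7 groups, and 14.8% to 16.3% in the activating line under tamoxifen. ESR1, which supplies the ERT2 sequence, had 0 to 2 counts in the parental line and 66 to 159 in the MACC lines. All 9 luminal prostate markers had counts, from a summed 418 to 1591 in 7 groups to 4219 to 5993 in the activating line under tamoxifen, where KRT8 alone held 4080 to 5848. Other markers on the list were lower there than in the activating line under vehicle, with 14 to 19 against 33 to 57 counts for HOXB13 and 6 to 10 against 15 to 26 for FOXA1. Of 6 markers of basal, stromal and blood cells, TP63, COL1A2, DCN and PTPRC were at 0 in every library and COL1A1 reached 2 counts. KRT5, a basal keratin, had 38 to 54 counts in the activating line under tamoxifen and 0 in the other 28 libraries. Which strand's RNA these marker rows hold is unknown too, so a row at 0 does not show that its gene was silent. Likewise, a high row such as that of KRT8 does not show which gene its RNA came from. Replicate 1 of the neutral line under tamoxifen stood apart from its group, with a chi-square per gene of 24.1 to 36.7 against its replicates, and so did replicate 3 of the activating line under vehicle, with 11.8 and 15.3 against replicates 2 and 1. The other comparisons between replicates gave at most 8.76. Calls of members that use these 2 libraries are also given without them.

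Levels between genes were compared per kilobase of annotated exon, as normalized counts, which are the CPM of the tested rows after TMM scaling. Over all libraries RP5-940J5.9 had 62006 normalized counts per kb against 41.0 for GAPDH, a 1513-fold difference. RP11-138I1.4 had 24166 against 17.2 for UBB, 1408-fold. In the pairs with a longer opposite gene the differences were smaller, 497-fold for SNX22 over PPIB, 349.8-fold for AC009133.14 over MAZ and 319.5-fold for BEST1 over FTH1. This order rests on the annotated exon lengths. By counts the ferritin pair was the most unequal of the 5 and the GAPDH pair the least. Per kb, RP5-940J5.9 stood first among the 5 opposite rows and SNX22 last, and GAPDH stood first among the 5 housekeeping rows and PPIB last. Of the raw counts of a pair, pooled over the libraries, GAPDH held 0.380%, MAZ 0.254%, UBB 0.246%, PPIB 0.154% and FTH1 0.0756%. BEST1 was in every library at 12167 counts or more, while of the other genes known from the retinal pigment epithelium RPE65 was at 0 in all 32 libraries and RLBP1 reached 1 count. Rows of common reference genes were low too, with a median of the mean count of 9.86, and 0.844 for B2M and 0.125 for HPRT1. The rows of RPE65 and RLBP1 therefore do not show that these genes were silent.

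Other pairs of the table were unequal too. Among 876 opposite-strand pairs with shared exons and at least 100 counts between them on average, the log2 ratio of the larger to the smaller row had a median of 5.69. The chosen pairs had 8.02 for GAPDH, 8.59 for MAZ, 8.62 for UBB, 9.27 for PPIB and 10.33 for FTH1, above 83.2% to 96.7% of the other pairs. Where a protein-coding gene faced a long noncoding RNA, the noncoding row was the higher one in 317 of 420 pairs (75.5%). These ratios are of counts and not per length.

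Within groups the opposite rows varied less than the housekeeping rows, though more than counting error alone would give. The housekeeping rows varied about as much as their counts allowed. The coefficient of variation of the normalized count, as the root mean square over the 8 groups, was 4.51% for AC009133.14, 6.55% for SNX22, 7.03% for BEST1, 7.84% for RP5-940J5.9 and 8.57% for RP11-138I1.4, where counting error alone, with each read taken as an independent molecule, would give 0.718% to 1.24%. It was 16.03% for GAPDH against 13.5% from counting, 24.1% against 26.0% for UBB, 24.9% against 22.6% for MAZ, 29.5% against 26.3% for FTH1 and 33.4% against 33.9% for PPIB. FTH1 varied most in the activating line under tamoxifen, at 45.0% against 17.2% from counting, and by 18.8% to 35.6% in the other 7 groups. Changes in the low rows were thus detectable only when large.

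**Figure D2:**
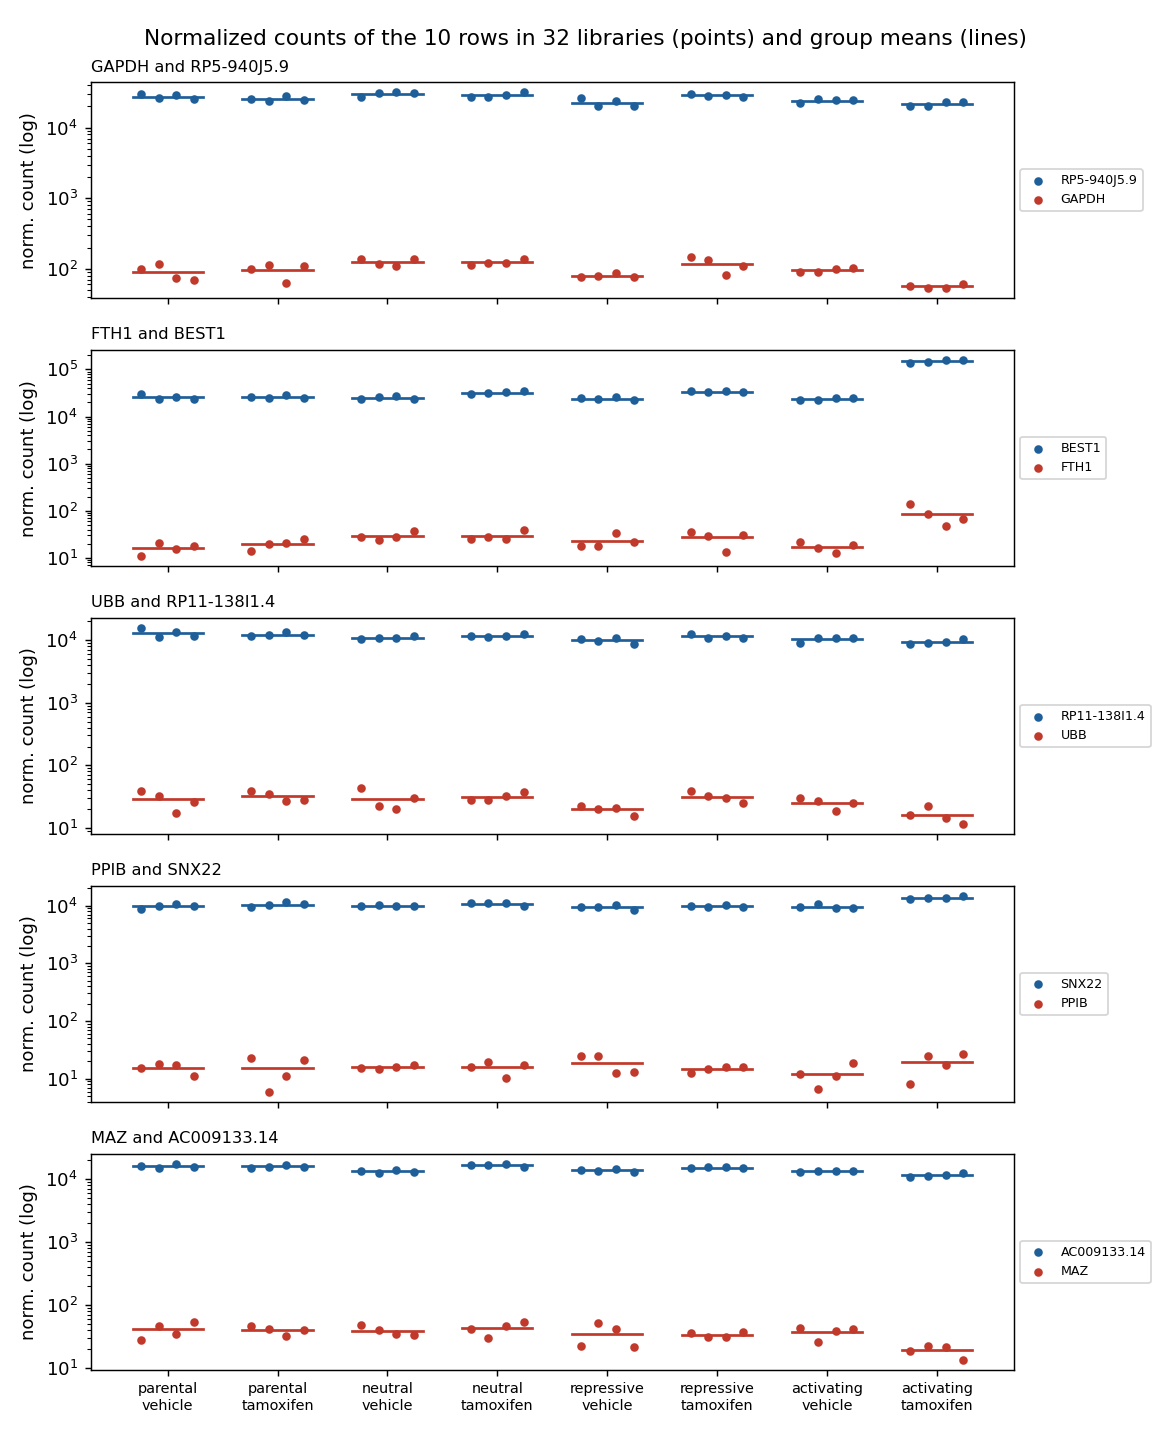
Normalized counts (CPM of the tested rows after TMM scaling, log axis) of both rows of each pair in the 4 libraries of each group, with lines at the group means. The housekeeping rows (red) sit between 5.87 and 148.0 and the opposite rows (blue) between 8371 and 158207, and the FTH1 and BEST1 rows step up together in the activating line under tamoxifen.

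With the activating construct, tamoxifen raised the ferritin pair. Against vehicle, FTH1, BEST1 and SNX22 rose and GAPDH, MAZ and AC009133.14 fell, 6 of the 10 rows, where 44.8% of all tested rows passed (edgeR's quasi-likelihood test, Benjamini-Hochberg adjusted p under 0.05). The 3 that rose compare with 22% of tested rows that rose, and the 3 that fell with 22.8% that fell. BEST1 had 20642, 16519, 15851 and 14589 counts under vehicle and 66665, 71623, 64996 and 82222 under tamoxifen. All tamoxifen libraries were above all vehicle libraries, and above the other 28 libraries of the series. The normalized count went from 23477 ± 1499.9 to 149525 ± 10734 (SD, n = 4 each), which is a log2 change of 2.66 with an SE of 0.067 (edgeR adjusted p = 2.14e-19). BEST1 then made up 10.8% to 11.8% of all counts, against 2.27% to 3.57% in the other libraries. FTH1, its partner, had 20, 12, 8 and 11 counts under vehicle and 67, 41, 20 and 35 under tamoxifen. The groups did not touch in normalized counts, 17.2 ± 3.76 against 84.0 ± 37.8 (SD, n = 4 each), although the highest vehicle count equalled the lowest tamoxifen count before scaling. The log2 change was 2.26 with an SE of 0.31 (edgeR adjusted p = 6.33e-06). KRT5 and KRT8 were also higher in these libraries, as given above, and their part in the result was not tested. In bulk RNA a change in the number of cells of one kind and a change in the RNA per cell cannot be told apart.

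SNX22 and PPIB both had positive changes, and only SNX22 passed the test. SNX22 had 8675, 7907, 5858 and 5367 counts under vehicle and 6395, 6714, 5570 and 7663 under tamoxifen. Raw counts overlapped, and the normalized counts did not, at 9552 ± 720.1 and 13751 ± 708 (SD, n = 4 each). Its log2 change was 0.52 with an SE of 0.067 (edgeR adjusted p = 1.05e-06). This value depended on the scaling. With total counts in place of TMM the median log2 change of all tested rows was -0.53 in place of -0.092, the calls split into 453 higher and 1655 lower in place of 876 and 910, and SNX22 came to 0.08 (adjusted p = 0.41 from edgeR), which is 0.61 above that median. PPIB had 11, 5, 7 and 11 counts under vehicle and 4, 12, 7 and 14 under tamoxifen, a log2 change of 0.69 with an SE of 0.39 (edgeR adjusted p = 0.159), and its groups overlapped.

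GAPDH and MAZ fell. GAPDH had 83, 68, 63 and 61 counts under vehicle and 28, 26, 22 and 32 under tamoxifen, with no overlap. The normalized count went from 95.6 ± 6.33 to 56.3 ± 3.91 (SD, n = 4 each), which is a log2 change of -0.76 with an SE of 0.17 (edgeR adjusted p = 7.76e-04). MAZ had 40, 19, 25 and 25 counts under vehicle and 9, 11, 9 and 7 under tamoxifen, also with no overlap, a log2 change of -0.99 with an SE of 0.28 (edgeR adjusted p = 0.00603). AC009133.14, opposite MAZ, had a log2 change of -0.21 with an SE of 0.061 (edgeR adjusted p = 0.00853), from 13335 ± 245 to 11628 ± 702 normalized counts (SD, n = 4 each). With no filter on low counts this fall did not pass (adjusted p = 0.0610 from edgeR). RP5-940J5.9, opposite GAPDH, had -0.16 ± 0.066 (standard error) and did not pass (adjusted p = 0.0516 from edgeR). UBB, which ranged over 12 to 28 counts in vehicle libraries and 6 to 11 in tamoxifen libraries, had -0.66 ± 0.31, and RP11-138I1.4 had -0.14 ± 0.071 (adjusted p = 0.0876 and 0.107 from edgeR). RP5-940J5.9 and RP11-138I1.4 passed when vehicle replicate 1 or tamoxifen replicate 4 was left out, and also with total counts, where they came to -0.60 and -0.58, which is -0.07 and -0.05 relative to the median of all rows under that scaling. UBB passed with total counts too, at -1.10, and the members called were then 2 higher and 6 lower. Both rows of a pair had the same sign of change in all 5 pairs of the activating line, counting rows that did not pass. The same held in 3 of 5 pairs in the parental line, 4 in the neutral and 4 in the repressive line. The share among other opposite-strand pairs was not computed. Without vehicle replicate 3, which stood apart, the same number of rows passed, 3 higher and 3 lower.

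With the repressive construct, tamoxifen raised 5 of the 10 rows and lowered none, where 17.8% of all tested rows passed and 7.8% rose. They were BEST1, RP5-940J5.9, RP11-138I1.4, AC009133.14 and GAPDH. BEST1 had 17925, 18558, 12226 and 15612 counts under vehicle and 27606, 18060, 23148 and 22847 under tamoxifen. Normalized, the groups were 24081 ± 1536 and 33904 ± 1071 (SD, n = 4 each), with no overlap, and the log2 change was 0.52 with an SE of 0.051 (edgeR adjusted p = 8.12e-09). RP5-940J5.9 went from 22682 ± 2753 to 28857 ± 1207 normalized counts (SD, n = 4 each), which is a log2 change of 0.37 with an SE of 0.066 (edgeR adjusted p = 4.32e-04). GAPDH had 55, 63, 42 and 53 counts under vehicle and 116, 73, 56 and 76 under tamoxifen. Its groups overlapped, since replicate 3 under tamoxifen lay within the vehicle range, and its log2 change was 0.60 with an SE of 0.16 (edgeR adjusted p = 0.00865). RP11-138I1.4 and AC009133.14 had 0.23 ± 0.061 and 0.17 ± 0.049 (standard error). The call of AC009133.14 was lost without vehicle replicate 1 or 2 (adjusted p = 0.0547 and 0.0570 from edgeR) and with no filter on low counts (adjusted p = 0.211 from edgeR). UBB had 0.70 ± 0.26 with an adjusted p of 0.0641 from edgeR, and FTH1, the partner of BEST1, 0.34 ± 0.30. With total counts the median of all rows moved from 0.0048 to -0.12, the calls from 311 higher and 398 lower to 148 and 559, and the members called to BEST1 and RP5-940J5.9.

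With the neutral construct, BEST1 and AC009133.14 rose, 2 of the 10 rows, where 4.72% of all tested rows passed and 2.61% rose. BEST1 had 18565, 19590, 20547 and 19594 counts under vehicle and 28333, 17800, 22083 and 22207 under tamoxifen. After scaling, all tamoxifen libraries were above all vehicle libraries, 25101 ± 1757 against 32257 ± 1723 (SD, n = 4 each), which is a log2 change of 0.36 with an SE of 0.057 (edgeR adjusted p = 5.43e-04). AC009133.14 went from 13256 ± 604 to 16790.4 ± 763 normalized counts (SD, n = 4 each), 0.34 on the log2 scale with an SE of 0.053 (edgeR adjusted p = 4.99e-04). The partners FTH1 and MAZ had -0.0038 ± 0.24 and 0.16 ± 0.22 (standard error), so that neither a change as large as that of the opposite row nor its absence could be shown. The remaining rows lay between -0.072 and 0.11. The count of 2 rows held without tamoxifen replicate 1, which stood apart. With total counts neither row passed, at 0.24 and 0.21, which is 0.39 and 0.36 above the median of all rows (-0.15), and the calls went from 104 higher and 84 lower to 26 and 130.

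In the parental line, which lacks a construct, 0 of the 10 rows passed, and 0% of all 3985 tested rows did (306 at an unadjusted p under 0.05 from edgeR, and 0 after adjustment with DESeq2). BEST1 had 13771, 14707, 12167 and 16555 counts under vehicle and 18349, 12858, 17601 and 16673 under tamoxifen, 25805 ± 3081 and 26051 ± 1477 normalized (SD, n = 4 each), with overlapping groups and a log2 change of 0.027 ± 0.076 (standard error). The other opposite rows lay between -0.092 and 0.12, and the housekeeping rows between -0.064 and 0.26, with standard errors of 0.20 to 0.38.

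**Figure D3:**
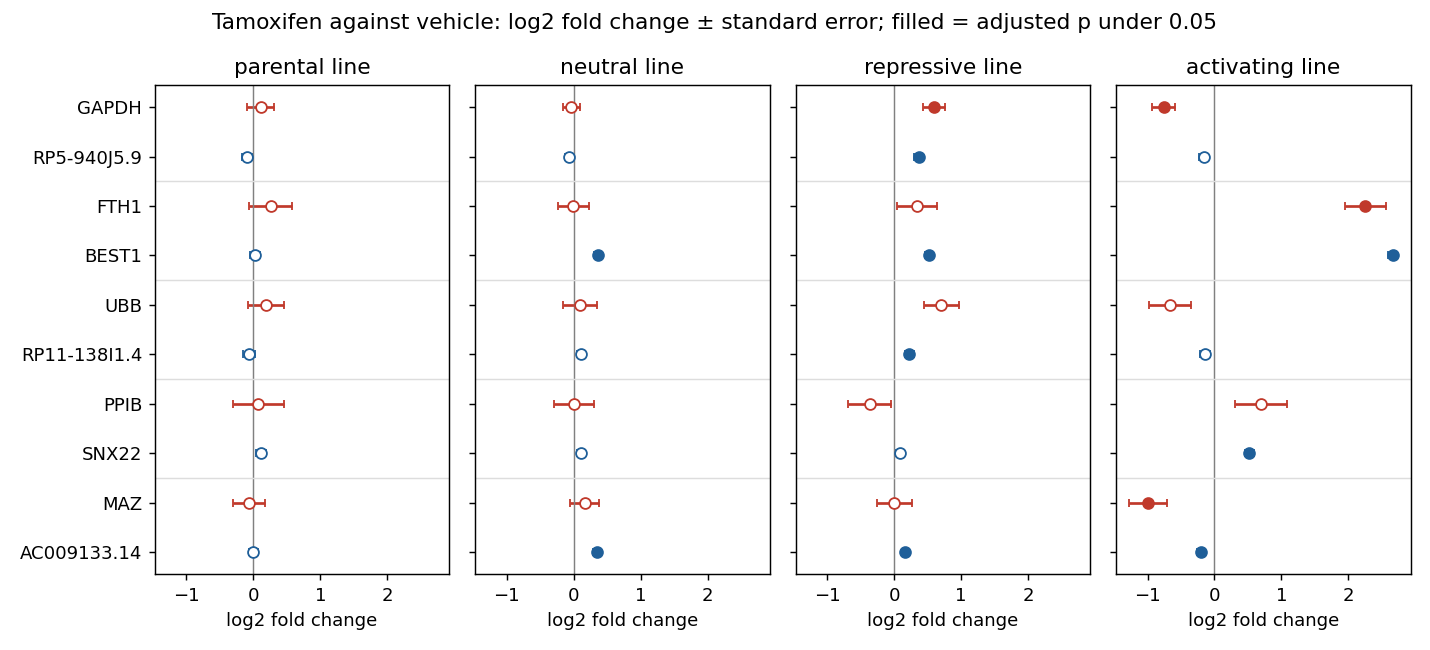
Log2 fold change of tamoxifen against vehicle (x axis, bars of 1 standard error) of the 5 housekeeping rows (red) and the 5 opposite rows (blue) in each line, filled where the adjusted p from edgeR was under 0.05. The filled points number 0 in the parental, 2 in the neutral, 5 in the repressive and 6 in the activating line, and BEST1 and FTH1 reach 2.66 and 2.26 in the activating line.

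The responses of the lines were then compared with each other. The response of the activating line differed from that of the neutral line in 7 of the 10 rows, where 33.4% of all tested rows differed (interaction term of edgeR's quasi-likelihood test). The difference of log2 fold changes was 2.27 for BEST1 with an SE of 0.075 (edgeR adjusted p = 3.52e-20) and 2.23 for FTH1 with an SE of 0.40 (edgeR adjusted p = 6.57e-05). SNX22 had a difference of 0.38, GAPDH -0.76, RP11-138I1.4 -0.28, AC009133.14 -0.58 and MAZ -1.18, with adjusted p-values of 1.40e-07 to 0.0100 from edgeR. Without either of the libraries that stood apart, 7 rows differed as well, 3 higher and 4 lower. AC009133.14 thus rose in the neutral line and fell in the activating line, and the difference itself passed the test, also without either of the libraries that stood apart. Under 22 alternative settings, with each replicate left out among them, RP11-138I1.4 lost its call in this comparison in 6 and SNX22 in 1. The other called rows kept theirs in all 22. The response of the repressive line differed from that of the neutral line in 1 row, RP5-940J5.9, where 3.39% of all tested rows differed. Its difference was 0.44 with an SE of 0.10 (edgeR adjusted p = 0.0133), and 0.42 without neutral tamoxifen replicate 1 (edgeR adjusted p = 0.0469). For BEST1 the repressive and neutral responses differed by 0.15 ± 0.078 and for GAPDH by 0.63 ± 0.21 (standard error, adjusted p = 0.390 and 0.0966 from edgeR). Both comparisons share the 8 libraries of the neutral line.

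Without tamoxifen the lines differed from the parental line in a few opposite rows, each lower. In the neutral line these were AC009133.14 and RP11-138I1.4, 2 of the 10 rows, where 9.74% of all tested rows passed and 5.72% were lower. AC009133.14 had 7545, 9377, 7966 and 11020 counts in the parental line and 10595, 9547, 10638 and 10629 in the neutral line, 16056 ± 947 against 13256 ± 604 normalized (SD, n = 4 each), which is a log2 change of -0.29 with an SE of 0.07 (edgeR adjusted p = 0.00673). In the repressive line 3 rows were lower, AC009133.14, RP11-138I1.4 and RP5-940J5.9, where 10.8% passed and 5.04% were lower, with log2 changes of -0.23, -0.40 and -0.29. In the activating line 1 row was lower, AC009133.14 at -0.25 ± 0.071, where 8.08% passed and 3.84% were lower. It did not pass without the activating vehicle replicate 3 that stood apart (adjusted p = 0.0996 from edgeR). Leaving out single libraries removed several of these calls. RP11-138I1.4 in the neutral line had -0.26, which became -0.15 without parental replicate 1, the library with its highest value, and lost its call without parental replicate 1 or 3 or any of the 4 neutral replicates. RP11-138I1.4 in the repressive line passed without any single library. None of the housekeeping rows passed in these 3 comparisons, and GAPDH in the neutral line, at 0.47 ± 0.17, was nearest to it (adjusted p = 0.0701 from edgeR). The 3 comparisons share the 4 parental vehicle libraries.

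Whether the balance within a pair moved was tested with the log2 ratio of the opposite to the housekeeping count in each library. In the GAPDH pair the ratio in the activating line was 7.97 ± 0.10 under vehicle and 8.57 ± 0.11 under tamoxifen (SD, n = 4 each). The groups did not overlap, and the difference was 0.60 (exact two-sided permutation p = 0.0286). Without vehicle replicate 3 the groups did not overlap either, at a difference of 0.58 (exact permutation p = 0.0571, the smallest that 3 against 4 can give). In the UBB pair of the repressive line the ratio went from 8.93 ± 0.10 to 8.48 ± 0.20 (SD, n = 4 each), also with no overlap, a difference of -0.44 (exact two-sided permutation p = 0.0286). This p is the smallest that 4 against 4 libraries can give. Over the 20 tests of 5 pairs in 4 lines no ratio passed the adjustment, the smallest adjusted p being 0.286. With that floor a few shifted ratios among 20 could not pass, so the adjusted result does not show that the balance held. The ferritin pair, whose rows both rose in the activating line, had a ratio of 10.38 ± 0.37 under vehicle and 10.88 ± 0.72 under tamoxifen (SD, n = 4 each, exact permutation p = 0.314). The SD of the ratio within groups was 0.273 for the GAPDH pair and 0.362 to 0.525 for the others, and counting alone would give 0.195 and 0.327 to 0.489. A shift smaller than this spread was not detectable at this depth.

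**Figure D4:**
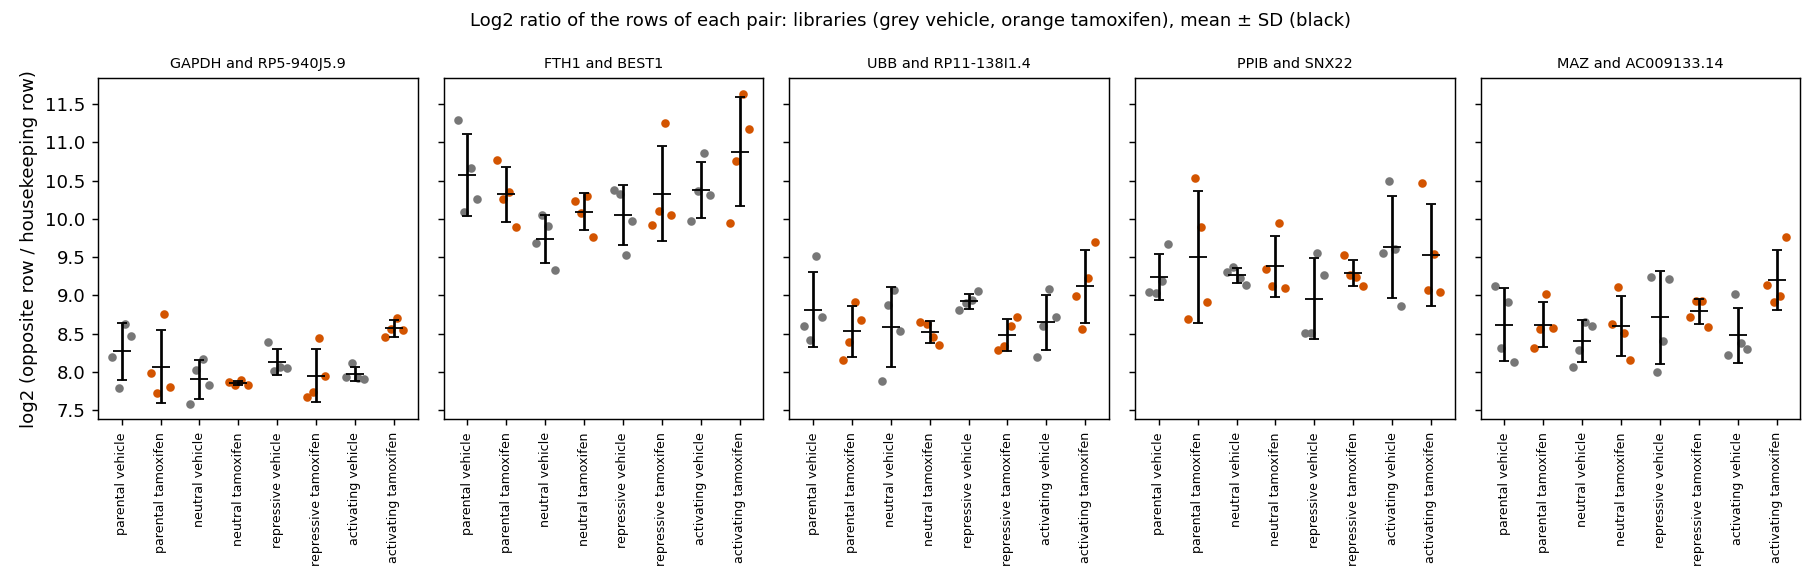
Log2 ratio of the opposite count to the housekeeping count (y axis, pseudocount 0.5 on both) in each library of the 8 groups, vehicle in grey and tamoxifen in orange, with the mean and SD in black. All ratios lie between 7.58 and 11.63, and in the GAPDH pair the activating tamoxifen libraries lie above the activating vehicle libraries.

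Over the 8 group means of log2 CPM, the rows of a pair had a Pearson r of 0.94 for FTH1 and BEST1, 0.89 for the GAPDH pair, 0.85 for the UBB pair, 0.79 for the MAZ pair and 0.39 for the PPIB pair, as a description over points that share libraries and scaling. Over the 32 single libraries r was lower, at 0.80, 0.64, 0.51, 0.47 and 0.11 in the same order. The rows named next had the highest r with a member among all tested rows, while its partner was a single fixed row. With so many rows and 8 points, some row above the partner is likely for any member, also by counting noise. That these rows exceeded the partner therefore shows nothing about the pair. BEST1 and FTH1 were highest in the activating line under tamoxifen, and their r without that group was not computed. BEST1 was most like CTD-2139B15.2 and EXOSC4 (r = 0.997 and 0.996 over 8 group means), FTH1 like TCEAL4 (0.992) and GAPDH like EEF2 and MCM2 (0.973 and 0.970). RP5-940J5.9 was most like LSM4 and DBN1, UBB like RP11-773D16.1 and CTD-2350C19.2, and RP11-138I1.4 like ATP6V0E2-AS1 and ZNF224. For PPIB they were RP11-296A16.1 and IST1, for SNX22 RP11-388M20.2 and HIST1H2BK, for MAZ VTI1B and RPL10, and for AC009133.14 RP5-1165K10.2 and RP1-90J20.12.

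The constructs bind AREs through the receptor's DNA-binding domain. Only the exact palindrome was searched for here, and variants of the element were not. The exact form is rare near gene starts, so finding none near 10 members was likely in advance. It does not show that these loci lack AREs. The palindrome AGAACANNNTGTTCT, which reads the same on both strands, was found within 10 kb of the start of 0 of the 10 members, and of 63 of 20098 protein-coding genes (0.313%) on GRCh37.

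Other genes of the same pathways were read from lists, each by the row of its own name. Which strand's RNA these rows hold is unknown as well, so their changes are changes of rows. In the activating line 11 of 17 glycolysis genes were tested, of which 1 rose and 4 fell, GAPDH among them, where 44.8% of all tested rows passed, with a median log2 change of -0.73 against -0.092 for all tested rows. Of the iron storage and uptake genes 3 of 11 were tested, of which 2 rose, FTH1 among them. Of 10 ubiquitin genes and first enzymes 8 were tested and 1 fell. Of 12 genes for folding in the endoplasmic reticulum 7 were tested and 2 rose. None of the 4 tested cyclophilins of 8 passed, and MAZ was the 1 tested factor of 8 in the list of GC-box zinc finger factors. Of 20 common reference genes 12 were tested, of which 1 rose and 4 fell, with a median of -0.35. The shares of glycolysis and reference genes that passed were thus near that of all tested rows. In the repressive line, where 17.8% of all tested rows passed, 1 glycolysis gene rose, which was GAPDH, 1 ubiquitin gene and 1 folding gene fell and 1 reference gene rose, and in the parental and neutral lines none of the list genes passed.

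GPI and RPLP0 were among the listed genes with the largest changes in the activating line. GPI, which acts upstream of GAPDH in glycolysis, had 12.3 ± 1.99 normalized counts under vehicle and 1.98 ± 1.57 under tamoxifen (SD, n = 4 each), which is a log2 change of -2.43 with an SE of 0.60 (edgeR adjusted p = 0.00209). RPLP0, a ribosomal protein gene used as a reference, went from 33.7 ± 6.44 to 9.96 ± 4.48 (SD, n = 4 each), -1.73 on the log2 scale. Both rest on few counts.

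The low level was shared by the listed genes in general. Of 75 listed genes beside the members, the median of the mean count was 5.30 and the highest 289, for CALR, a chaperone of the endoplasmic reticulum. Of the 74 that were placed in the annotation, 27 had an exon on the opposite strand under another gene, and in 13 of these the opposite row held more counts. The opposite row reached a mean of 1000 counts for 3 of them: TUBB, opposite XXbac-BPG252P9.9 with a mean of 13337 counts, P4HB, opposite RP11-498C9.2 with 3605, and PDIA6, opposite ATP6V1C2 with 3372. The other 47 had no exon opposite them, and ACTB, with a mean of 37.1 counts, was among these.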

How the data were processed

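RNA from 32 cultures (8 groups of 4 biological replicates) was sequenced from Illumina Stranded mRNA libraries. The authors made the estimated counts per gene with salmon 1.9.0 on GRCh37 and deposited them without normalization; the annotation release and strand setting are not given in the sources used here. All columns were matched to samples by name. Counts were rounded to whole numbers, and 454982 to 1164808 counts per library set the precision. In edgeR 4.0.16 (R 4.3.3), 3985 of 57773 rows were kept with filterByExpr over the 8 groups, scaled by TMM and tested with robust quasi-likelihood fits, adjusted by Benjamini-Hochberg over all kept rows at 0.05. Tamoxifen was compared with vehicle over 8 libraries of a line, lines over 8 vehicle libraries, and responses by interaction over 16 libraries. The log2 ratio within a pair used a pseudocount of 0.5 and an exact permutation test. Replicate numbers were not taken as pairs. The scripts were tested on simulated data. Positions and sequences came from the GRCh37 genome and GENCODE 44 lifted to it, which held 96.1% of the rows.

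The members and gene lists were chosen with earlier results of these data known. Named beside the members are the 3 listed genes with the largest called change in the activating line and, per member, the 2 rows with the highest Pearson r over 8 group means (log2 CPM, prior count 2). Some genes that this rule names are not reported here. Genes named for exon overlap or as examples of list levels were chosen after their values were seen. Alternatives were DESeq2 1.42.0, other scalings, no filter, the replicate number as a block, other pseudocounts and each replicate left out.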

Additional observations from a re-analysis of the deposited data

Results flagged for a closer look

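Of 80 sets of 4 libraries (10 rows in 8 groups), 1 held a library far from the others by Dixon's criterion, and chance gives about 1 in 20. RP11-138I1.4 had 9001 normalized counts in replicate 1 of the activating line under vehicle, and 10657 to 10921 in the other 3 replicates. Without this library its log2 change under tamoxifen in the activating line was -0.19 (edgeR adjusted p = 0.0247), against -0.14 with it.

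Set against the neutral line, the response to tamoxifen differed for 7 rows with the activating construct and for 1 with the repressive one, tested as an interaction with edgeR. In the activating line the log2 changes exceeded those of the neutral line by 2.27 for BEST1, 2.23 for FTH1 and 0.38 for SNX22. They differed by -0.76 for GAPDH, -0.28 for RP11-138I1.4, -1.18 for MAZ and -0.58 for AC009133.14. In the repressive line the change of RP5-940J5.9 exceeded that of the neutral line by 0.44.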

How the results depend on the processing

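Under the alternatives run, none of the 27 calls of a member changed its direction, 12 passed under every alternative and 15 were lost under at least 1. With total counts and no scaling factor the members called came to 0 of 10 in the neutral, 2 in the repressive and 8 in place of 6 in the activating line, 2 for the activating against the parental line and 0 for the repressive against the neutral response. For the neutral against the parental line they came to 1 with DESeq2 and 1 with DESeq2 size factors, and with no filter on low counts they came to 2 for the activating against the parental line, 5 in place of 6 in the activating line and 4 in place of 5 in the repressive line, both by the loss of AC009133.14. The cause was not tested.

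In no comparison did all 4 same-numbered pairs of libraries have a correlation of their deviations over 0.1, so the numbers were not taken as pairs, and the replicate number as a block is only an alternative. All 4 were above 0 in the repressive line (0.041 to 0.249), where each vehicle library was most like the tamoxifen library of its own number, in the activating line (0.036 to 0.148), and between the parental and repressive lines (0.030 to 0.304). With that block the members called came to 8 in place of 6 in the activating line, where RP5-940J5.9 and RP11-138I1.4 passed (adjusted p = 0.00888 and 0.0223 from edgeR), 6 in place of 5 in the repressive line, where UBB passed (0.0487), 1 for the neutral against the parental line, 0 for the activating against the parental line and 2 for the repressive against the neutral response. All rows called with the block numbered 32 in place of 0 in the parental line, 208 in place of 388 for the neutral, 686 in place of 432 for the repressive and 90 in place of 322 for the activating against the parental line, and 205 in place of 135 for the repressive against the neutral response. The paired sign-flip test of the pair ratio called 0 pairs in the repressive and 0 in the activating line, since 4 pairs cannot give a p under 0.125.

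Leaving out 1 replicate at a time gave 0 to 3 members for the neutral, 1 to 2 for the repressive and 0 to 2 for the activating line against the parental line, and 1 to 2 for the repressive against the neutral response. Against the parental line, GAPDH passed in the neutral line without parental replicate 1 or 2, and AC009133.14 was lost there without parental replicate 3 or neutral replicate 2. In the repressive line AC009133.14 was lost without any single replicate other than parental replicate 1, and RP5-940J5.9 was lost without parental replicate 1, 2 or 3 or repressive replicate 2 or 4. In the activating line AC009133.14 was lost without parental replicate 3 or activating replicate 1, 2 or 3, and RP11-138I1.4 passed without parental replicate 2 or 4 or activating replicate 4. GAPDH passed for the repressive against the neutral response without repressive tamoxifen replicate 3. Pairs with separated ratios numbered 0 to 1 in the neutral, 1 to 2 in the repressive and 1 to 2 in the activating line. Over all rows the calls ranged from 0 to 3 in the parental line, 105 to 415 in the neutral line, and, against the parental line, 202 to 517 for the neutral, 251 to 480 for the repressive and 120 to 315 for the activating line. All rows called numbered 454 with DESeq2 in place of 709 in the repressive line and 273 in place of 432 for the repressive against the parental line, 58 with total counts in place of 135 for the repressive against the neutral response, and 18 with no filter in place of 0 in the parental line. Depth limits the 5 housekeeping rows, at 3 to 116 counts a library.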
